A study of Homo sapiens with 6 samples.

Results

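The 10 genes described here encode some of the largest chromatin regulators of human cells, measured in Cal27 cells, an established tongue squamous carcinoma line. They were the histone acetyltransferases EP300 and CREBBP, the ATP-driven remodelers EP400 and SRCAP, the histone H3 lysine methyltransferases KMT2A, KMT2B, KMT2C and KMT2D, and the corepressors BCOR and BCORL1. They were picked by symbol after EP400 and BCORL1 had been seen high in the GFP libraries, so every contrast that involves GFP is given for them as a description, without a test. All 10 had a row among the 57820 gene identifiers of the count table. Of these, 9 were among the 16396 genes with enough counts to test, and KMT2B was not.

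The cells fell into 3 groups of 2 biological replicates. CRNN cells carried a lentivirus that overexpresses cornulin (CRNN), a protein of differentiating squamous epithelium. GFP cells carried the lentiviral GFP control vector, and for the untreated cells the labels name no virus, polybrene or harvest time. Transduced cells were harvested at 48 h, with polybrene at 8 µg/ml, and no selection of transduced cells is described. Total RNA was prepared with a stranded kit and all 6 libraries were labelled batch 1. With 1 line and 2 libraries a group, p-values measure the spread between these cultures, and transduction cannot be told apart from polybrene or harvest in any comparison with untreated cells.

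Library totals ran from 11817105 counts in GFP replicate 2 to 28041227 counts in untreated replicate 1, so that 3 counts were worth 0.115 to 0.239 CPM (counts scaled to equal library size with TMM factors). CRNN itself stood at 964 and 1028 CPM in CRNN cells, against 3.06 and 2.55 CPM in GFP cells and 3.51 and 2.08 CPM in untreated cells. Of the squamous markers, KRT5 lay between 1902 and 4270 CPM in all libraries, while KRT19 was at most 2.20 CPM. Of the markers of other cell types, DCN, THY1, CD3E, CD68 and KDR had too few counts to be tested. Summed over each list, 5 fibroblast markers reached 8.14 CPM at most and 3 immune markers 9.16 CPM at most. The endothelial list, of which CDH5 and VWF were tested, summed to 53.0 CPM in untreated replicate 1 and to at most 14.0 CPM in the others. Untreated replicate 1 stood apart in single genes of this kind. Some results of the genes described here against untreated cells are therefore also given without it. Fold changes of other single genes against untreated cells include it throughout.

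Coregulators of this kind bind no DNA sequence on their own in most cases. Transcription factors recruit them, and they then acetylate or methylate histones, exchange histone variants or bring in repressive enzymes. EP300 and CREBBP acetylate histone H3 lysine 27 and many other proteins. EP400, the motor of the TIP60 complex, and SRCAP both place the variant H2A.Z at promoters. KMT2A and KMT2B methylate H3 lysine 4 at promoters, KMT2C and KMT2D at enhancers, and BCOR and BCORL1 assemble variant Polycomb complexes. Several of these genes, KMT2D, KMT2C, CREBBP and EP300 among them, are recurrently mutated in squamous carcinomas.

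The 10 genes share long transcripts and a wide span of base composition, and base composition is shown here because the libraries differed along it. The canonical transcripts ranged from 6910 bases (BCOR) to 20635 bases (KMT2D), against a median of 2770.5 bases over tested genes with an annotation. Even BCOR was longer than 89.5% of them. GC content ran from 45.0% in KMT2C and 46.9% in KMT2A through 49.8% in EP300 and 53.4% in BCOR to 55.4% in EP400, 55.8% in CREBBP and 56.6% in BCORL1, with SRCAP at 57.4%, KMT2D at 59.8% and KMT2B at 63.5%. The median of the tested genes was 48.7%. Related genes differed in GC also where their encoded proteins are alike, as 3 pairs of 120-base coding stretches show, each taken where the encoded proteins of a pair are most alike within 1 exon, with G and C in capitals, 5′ to 3′ on the coding strand (GENCODE 44, GRCh38).
EP300: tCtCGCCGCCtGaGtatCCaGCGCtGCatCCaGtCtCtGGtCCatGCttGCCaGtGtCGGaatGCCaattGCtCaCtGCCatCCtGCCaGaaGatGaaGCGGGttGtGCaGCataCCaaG
CREBBP: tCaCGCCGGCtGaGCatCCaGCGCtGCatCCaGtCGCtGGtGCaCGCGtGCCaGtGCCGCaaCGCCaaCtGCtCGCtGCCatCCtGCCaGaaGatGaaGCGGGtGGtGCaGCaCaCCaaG
KMT2C: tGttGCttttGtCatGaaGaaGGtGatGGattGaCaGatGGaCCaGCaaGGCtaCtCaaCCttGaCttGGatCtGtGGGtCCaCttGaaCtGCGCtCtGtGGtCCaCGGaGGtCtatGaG
KMT2D: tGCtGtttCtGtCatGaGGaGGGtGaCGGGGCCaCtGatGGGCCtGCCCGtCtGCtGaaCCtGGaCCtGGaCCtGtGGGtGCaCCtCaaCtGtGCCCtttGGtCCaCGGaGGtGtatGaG
BCOR: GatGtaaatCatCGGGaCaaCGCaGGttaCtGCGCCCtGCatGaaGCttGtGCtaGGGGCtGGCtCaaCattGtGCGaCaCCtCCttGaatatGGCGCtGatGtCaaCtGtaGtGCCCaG
BCORL1: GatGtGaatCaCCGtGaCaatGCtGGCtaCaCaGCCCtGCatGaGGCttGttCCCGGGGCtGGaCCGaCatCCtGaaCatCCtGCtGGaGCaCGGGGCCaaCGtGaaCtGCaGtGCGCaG

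The EP300 stretch (chr22:41176899-41177018, plus strand) and the CREBBP stretch (chr16:3729629-3729748, minus strand) encode the same residue in 40 of 40 codons. They share 106 of 120 bases, and GC was 56.7% in EP300 and 65.0% in CREBBP. KMT2C (chr7:152148604-152148723, minus strand) and KMT2D (chr12:49026753-49026872, minus strand) encode the same residue in 39 of 40 codons, with 92 identical bases and a GC of 50.0% in KMT2C and 60.8% in KMT2D. BCOR (chrX:40057166-40057285, minus strand) and BCORL1 (chrX:130037403-130037522, plus strand) match in 31 of 40 codons and 85 bases, at 53.3% GC in BCOR and 60.0% in BCORL1. Over whole coding regions, the third codon position had 37.3% GC in KMT2C and 61.0% in KMT2D, 50.0% in EP300 and 63.8% in CREBBP, and 57.7% in BCOR and 62.5% in BCORL1. EP400 had 66.1% there.

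Per kilobase of transcript, the only scale on which different genes are compared here, EP300 had the highest mean in each group, though by less than the spread over the next gene, with 4.16 ± 1.00 CPM per kb in CRNN cells, 6.30 ± 0.136 in GFP cells and 3.61 ± 0.330 in untreated cells (SD, n = 2 each). In GFP cells CREBBP followed at 5.94 ± 0.417 CPM per kb, SRCAP at 5.37 ± 2.12 and EP400 at 5.01 ± 0.430, and these neighbours lay within their spread. In untreated cells EP400 stood at 1.53 ± 0.248 CPM per kb, below KMT2C at 3.46 ± 0.192 and CREBBP at 2.52 ± 0.308. KMT2A and BCORL1 closed the order in all groups. BCORL1 had 0.371 ± 0.0853 CPM per kb in CRNN cells, 0.726 ± 0.164 in GFP cells and 0.178 ± 0.0207 in untreated cells.

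EP300 had 42.7 and 30.3 CPM in CRNN cells, 54.4 and 56.1 CPM in GFP cells and 33.7 and 29.6 CPM in untreated cells. Both GFP libraries were the highest, and CRNN and untreated cells overlapped. In RNA from bulk cultures, more RNA per cell and more cells with that RNA cannot be told apart. Its paralog CREBBP had 44.0 and 33.8 CPM in CRNN cells, 67.3 and 60.9 CPM in GFP cells and 29.6 and 24.9 CPM in untreated cells. Here the 3 groups did not overlap, with CRNN cells between the others. For CRNN over GFP the log2 fold change was -0.60 ± 0.27 (SE) in EP300 and -0.72 ± 0.27 in CREBBP, and for GFP over untreated it was 0.80 ± 0.27 in EP300 and 1.24 ± 0.27 in CREBBP.

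Of the H2A.Z remodelers, EP400 showed the widest gap of all 9 genes. Its high GFP levels, with those of BCORL1, had led to the list, so this rank may carry that choice. EP400 had 28.7 and 18.9 CPM in CRNN cells, 65.3 and 57.9 CPM in GFP cells and 21.0 and 16.7 CPM in untreated cells. The lower GFP library stood 1.01 above the highest other library on the log2 scale. SRCAP had 40.1 and 25.5 CPM in CRNN cells, 80.5 and 45.3 CPM in GFP cells and 45.0 and 22.9 CPM in untreated cells. Each group varied widely in SRCAP, and GFP replicate 2 was above untreated replicate 1 by 0.012 log2 units only, the smallest gap of the 9 genes. Log2 fold changes for CRNN over GFP were -1.37 ± 0.30 in EP400 and -0.94 ± 0.42 in SRCAP, and for GFP over untreated 1.71 ± 0.30 in EP400 and 0.89 ± 0.42 in SRCAP. Without GFP replicate 1 the SRCAP value for GFP over untreated was 0.41, without untreated replicate 2 it was 0.47 and without untreated replicate 1 it was 1.44. For CRNN over GFP it was -0.46 without GFP replicate 1.

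**Figure D1:**
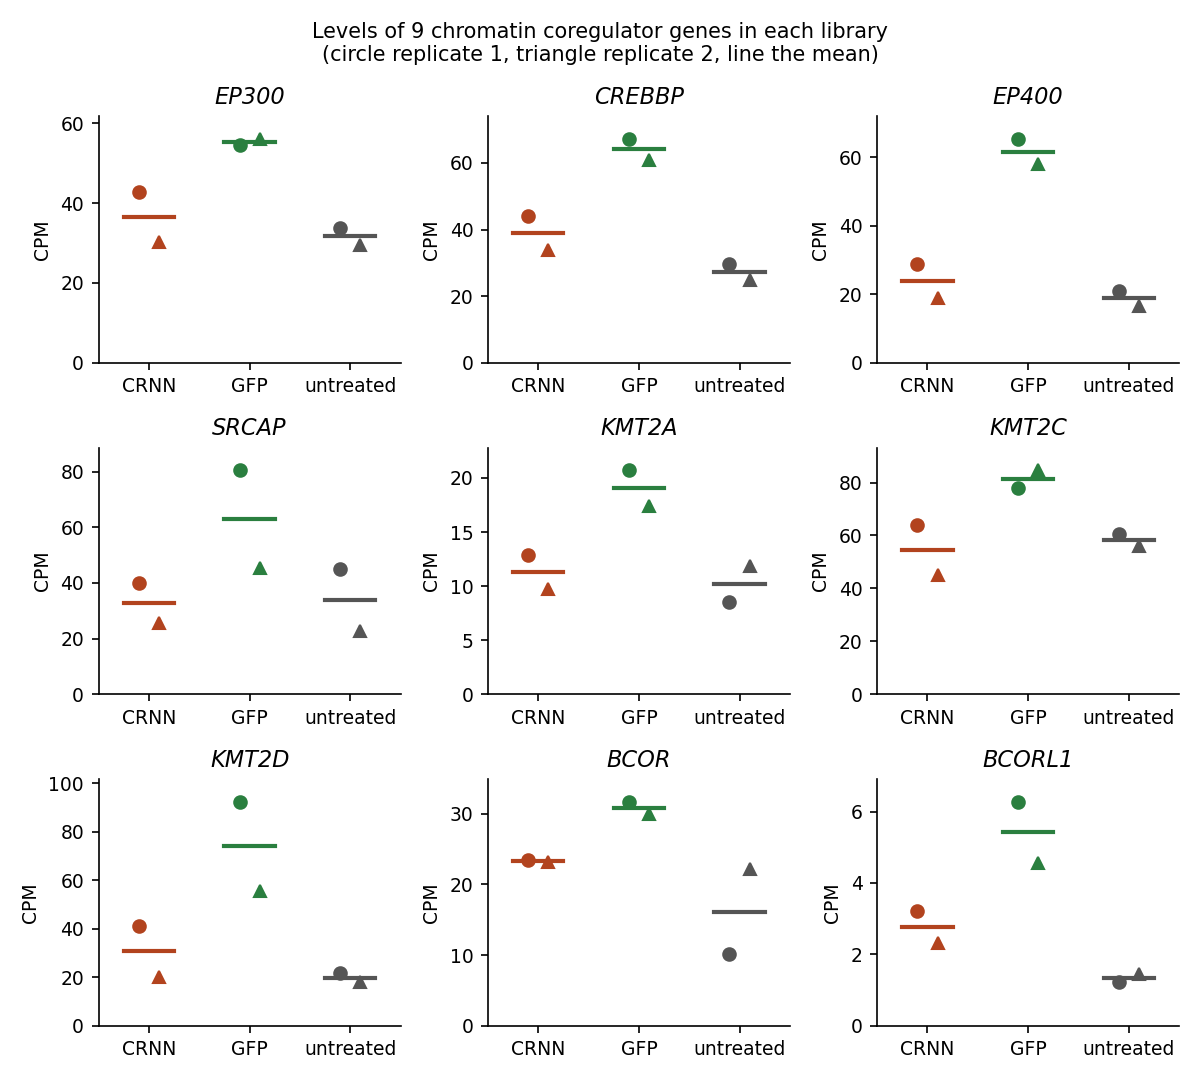
Levels in CPM (y axis, from 0, scaled per gene) of the 9 tested genes in CRNN, GFP and untreated Cal27 cells, with a circle for replicate 1, a triangle for replicate 2 and a line at the mean of the 2 libraries. Both GFP libraries lie above the other 4 in every panel, by the most in EP400 and the least in SRCAP, where the order did not hold with RLE factors. Of all tested genes, 9.63% had that order. High GFP levels of EP400 and BCORL1 had led to the choice of these genes.

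Among the H3 lysine 4 methyltransferases, KMT2D differed most between groups. It had 41.3 and 20.2 CPM in CRNN cells, 92.5 and 55.6 CPM in GFP cells and 21.8 and 17.9 CPM in untreated cells. Its log2 fold change was -1.27 ± 0.39 for CRNN over GFP and 1.90 ± 0.40 for GFP over untreated. The 2 CRNN libraries differed by 1.03 log2 units in KMT2D, more than in any other of the 9 genes, and CRNN replicate 2 alone lay within the range of untreated cells. KMT2C, which also works at enhancers, had 63.8 and 45.2 CPM in CRNN cells, 78.1 and 84.7 CPM in GFP cells and 60.7 and 56.1 CPM in untreated cells. Its differences were the smallest of the family, at -0.58 ± 0.27 for CRNN over GFP and 0.48 ± 0.27 for GFP over untreated. KMT2A, the trithorax homolog at promoters, had 12.8 and 9.72 CPM in CRNN cells, 20.7 and 17.4 CPM in GFP cells and 8.56 and 11.9 CPM in untreated cells. That gave -0.76 ± 0.30 for CRNN over GFP and 0.90 ± 0.30 for GFP over untreated. Without CRNN replicate 2, CRNN over GFP was -0.84 in KMT2D, -0.35 in KMT2C and, among the acetyltransferases, -0.37 in EP300. Without GFP replicate 1 it was also -0.84 in KMT2D.

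KMT2B (ENSG00000272333.1; GRCh38 chromosome 19, 35717973 to 35738880, plus strand) was listed at 0 counts in all 6 libraries. For this identifier a count of 0 allows up to 3 counts, or 0.115 to 0.239 CPM by library. That sets no limit for the gene, since whether its reads were assigned to another identifier was not tested, and KMT2B is described no further.

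The corepressors differed in level, with BCORL1 the lowest of the 9 genes per kilobase and BCOR of middle rank. BCOR, the BCL6 corepressor, had 23.4 and 23.2 CPM in CRNN cells, 31.7 and 30.01 CPM in GFP cells and 10.1 and 22.2 CPM in untreated cells. Its CRNN and GFP replicates lay close together, while untreated replicate 1 was below untreated replicate 2 by 1.12 log2 units. BCORL1, its paralog, had 3.22 and 2.32 CPM in CRNN cells, 6.28 and 4.55 CPM in GFP cells and 1.22 and 1.44 CPM in untreated cells. These rest on 71 and 52 counts in CRNN cells, 121 and 57 counts in GFP cells and 32 and 36 counts in untreated cells, and the groups did not overlap. Log2 fold changes for CRNN over GFP were -0.41 ± 0.36 in BCOR and -0.97 ± 0.38 in BCORL1, and for GFP over untreated 0.94 ± 0.36 in BCOR and 2.02 ± 0.39 in BCORL1. The BCOR value for GFP over untreated was 0.46 without untreated replicate 1 and 1.60 without untreated replicate 2.

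Both GFP libraries lay above the other 4 in 9 of 9 genes (8 of 9 with RLE factors, without SRCAP), where 9.63% of all tested genes had that order. Since the genes were chosen for high GFP levels in 2 of them, and the genes share libraries, nothing is read from this count. CRNN over GFP and GFP over untreated share the GFP libraries, and so their opposite signs are not independent either. The median log2 fold change of the 9 genes was -0.76 for CRNN over GFP (all tested genes -0.0017) and 0.94 for GFP over untreated (all tested genes -0.013).

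The comparison of CRNN with untreated cells uses no GFP library in its contrast and was tested. None of the 9 genes was called (edgeR quasi-likelihood F test, adjusted p at least 0.989), which does not show that they were unchanged. Over all genes, 1 of 16396 passed, CRNN itself, a share of 0.00610%. DESeq2 and limma-voom also called none of the 9, and the median log2 fold change was 0.34, against -0.0091 over all tested genes. Per gene, 7 of 9 estimates were positive, beside 49.1% of all tested genes. That count was 5 of 9 without CRNN replicate 1 and 9 of 9 without CRNN replicate 2.

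BCORL1 had the largest estimate, 1.05 ± 0.39 (SE; 95% interval 0.17 to 1.93). It alone among the members had an unadjusted p under 0.05 (edgeR, adjusted p = 0.989), a level that 4.48% of all tested genes reached. BCORL1 was 1 of the 2 genes whose high GFP levels led to the choice of the list, so its estimate may carry that choice. Without CRNN replicate 1 the BCORL1 estimate was 0.81, and without CRNN replicate 2 it was 1.26. KMT2D followed at 0.63 ± 0.39, with an interval from -0.26 to 1.52. BCOR had 0.53 ± 0.36 (-0.29 to 1.35) and CREBBP 0.52 ± 0.27 (-0.089 to 1.12). The other 5 estimates lay nearer 0, at 0.34 ± 0.30 in EP400, 0.20 ± 0.27 in EP300, 0.14 ± 0.30 in KMT2A, -0.051 ± 0.42 in SRCAP and -0.099 ± 0.27 in KMT2C. Their intervals reached from -0.33 to 1.01 in EP400 and from -0.99 to 0.89 in SRCAP. A rise near 2-fold in EP400 and a fall near 2-fold in SRCAP were thus not excluded at this depth and number of libraries.

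In CREBBP, BCOR and BCORL1 both CRNN libraries lay above both untreated ones, 3 of 9 genes beside 18.7% of all tested genes. In no member did both lie below, beside 18.4% of all tested genes. The order rested on single libraries in part. Without CRNN replicate 1 the median of the 9 genes was 0.021, without CRNN replicate 2 it was 0.52, and the BCOR estimate was 0.073 without untreated replicate 1 and 1.21 without untreated replicate 2. The KMT2D estimate was 0.045 without CRNN replicate 1 and 1.04 without CRNN replicate 2. Without CRNN replicate 1, EP400 had 0.021 and CREBBP 0.33, and without CRNN replicate 2 EP400 had 0.60.

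**Figure D2:**
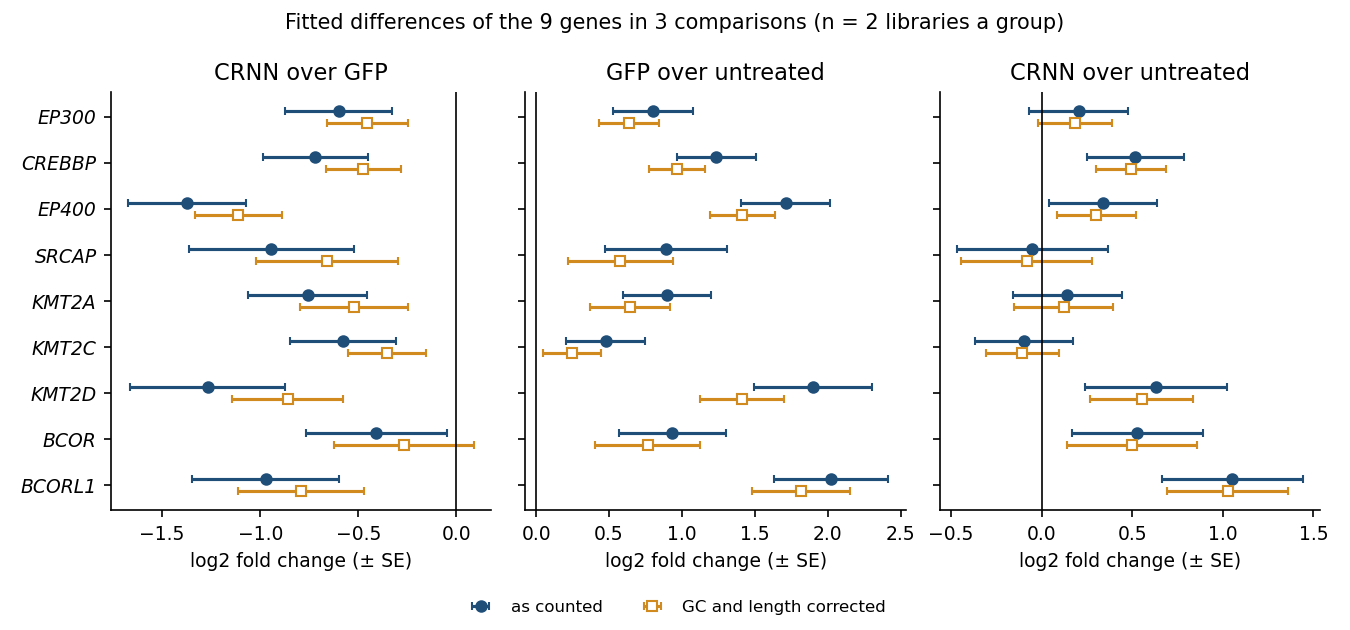
Log2 fold changes (x axis, ± SE from the edgeR fit, n = 2 libraries a group) of the 9 genes (rows) for CRNN over GFP, GFP over untreated and CRNN over untreated. Blue circles are the values as counted and open orange squares those after each library's trend with GC content and length was removed. The first comparison is negative and the second positive for all 9 genes, chosen after EP400 and BCORL1 were seen high in GFP libraries. Of all tested genes, 49.9% were positive in the first and 48.9% in the second. BCORL1 lies farthest from 0 in the third.

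The libraries differed along GC content and transcript length. The 15932 tested genes with an annotation were divided into 10 equal bins by GC content and by length. By GC, GFP replicate 1 had a median deviation from the gene means of -0.33 log2 units in the lowest bin and 0.33 in the highest. GFP replicate 2 ran the other way, at 0.20 in the lowest bin and -0.16 in the highest. By length, GFP replicate 1 had 0.17 in the shortest and -0.092 in the longest bin, and GFP replicate 2 had -0.14 in the shortest and 0.24 in the longest. The 4 other libraries stayed within -0.11 and 0.096 in the outer bins of GC. GFP replicate 1 thus read high at high GC and GFP replicate 2 at great length.

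**Figure D3:**
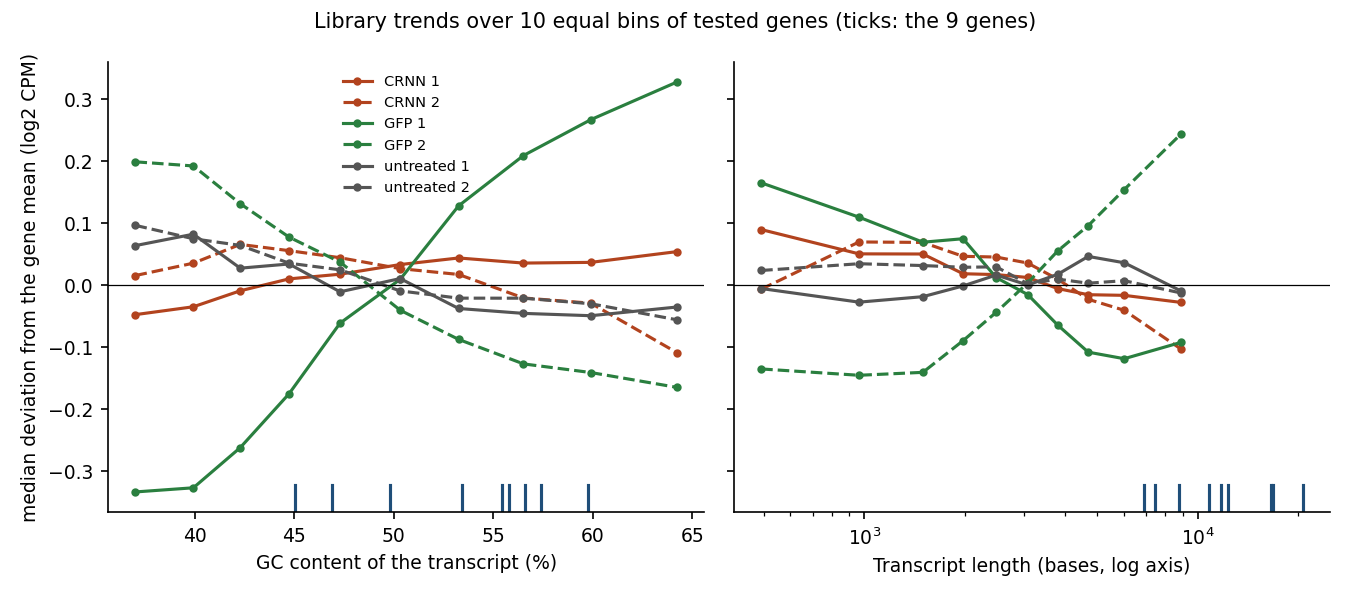
Median deviation of log2 CPM from the mean of the 6 libraries (y axis) over 10 equal bins of the tested genes by GC content (left, %) and length (right, bases, log axis), 1 line for each CRNN, GFP and untreated library; ticks on the x axes mark the 9 genes. GFP replicate 1 climbs to 0.33 at the highest GC and GFP replicate 2 to 0.24 at the greatest length.

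The 2 GFP libraries also differed from each other in single members. GFP replicate 1 exceeded replicate 2 by 0.83 log2 units in SRCAP and 0.74 in KMT2D, the 2 members of highest GC among those tested, and by 0.46 in BCORL1. The trend of all tested genes at the same GC and length gave 0.17 in SRCAP, 0.27 in KMT2D and 0.15 in BCORL1. In KMT2A the measured difference was 0.25, where that trend gave -0.22. The measured difference was 0.17 in EP400, 0.14 in CREBBP and 0.080 in BCOR. It was -0.12 in KMT2C and -0.044 in EP300, so that the 2 members at 45.0% and 49.8% GC were higher in replicate 2. Across the 9 genes this difference had a Pearson r of 0.74 and a Spearman rho of 0.80 with GC content (a description over genes of the same 2 libraries, n = 9). Between GC content and the log2 fold change for GFP over untreated r was 0.75 and rho 0.67, again over 9 genes that share these libraries. The list was chosen after EP400 and BCORL1 were seen high in GFP cells, so nothing is read from correlations with GFP over untreated. In CRNN cells replicate 1 exceeded replicate 2 in 9 of 9 genes, by 0.013 in BCOR to 1.03 in KMT2D (median 0.50). The trend of all tested genes at their GC and length also had replicate 1 higher, by 0.13 in BCOR to 0.38 in KMT2D. The share of all tested genes with that order was not counted. With GC content, the measured CRNN difference had an r of 0.41 and a rho of 0.43. With transcript length, r was 0.68 and rho 0.65 for this CRNN difference, 0.25 and 0.18 for the GFP difference, and 0.0097 and -0.12 for GFP over untreated.

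**Figure D4:**
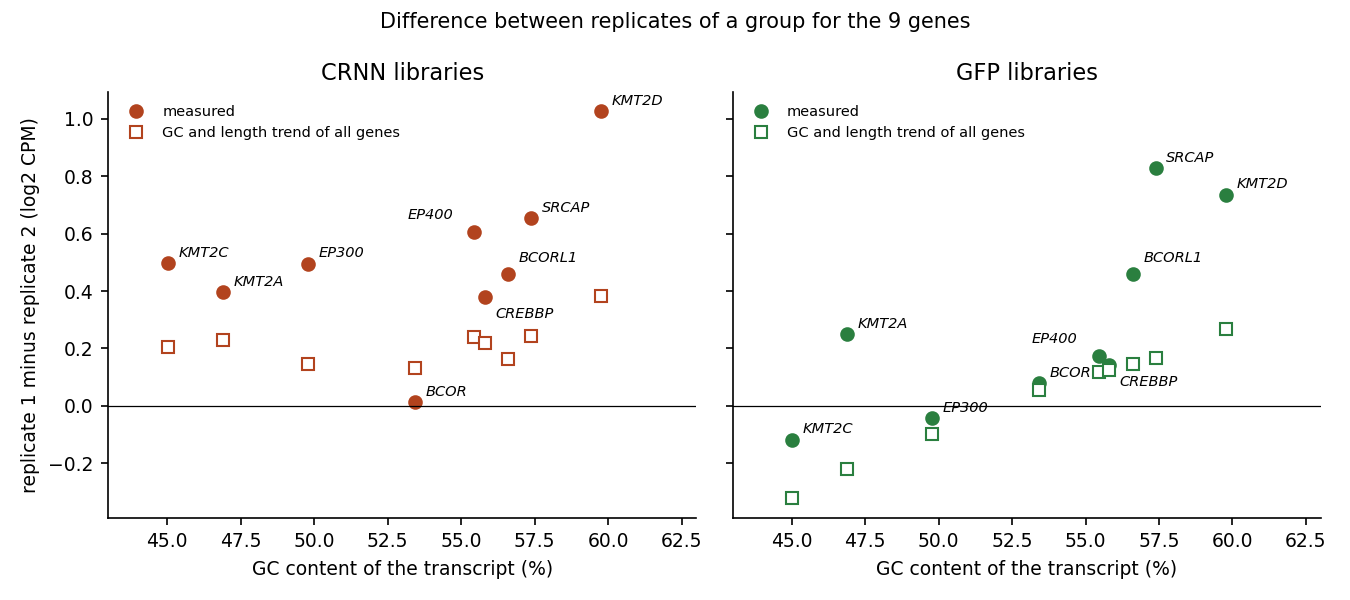
Replicate 1 minus replicate 2 in log2 CPM (y axis) against GC content in % (x axis) for the 9 genes, in CRNN cells (left) and GFP cells (right). Filled circles are measured values and open squares the trend of all tested genes at the same GC and length; in GFP cells the measured values run from -0.12 in KMT2C to 0.83 in SRCAP.

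Removing each library's trend with GC content and length reduced the differences without ending them. The median over the 9 genes was then -0.52 for CRNN over GFP, 0.76 for GFP over untreated and 0.30 for CRNN over untreated. EP400 kept -1.11 ± 0.22 for CRNN over GFP and 1.41 ± 0.22 for GFP over untreated, KMT2D had -0.86 ± 0.29 for CRNN over GFP and 1.41 ± 0.29 for GFP over untreated, and KMT2C 0.25 ± 0.20 for GFP over untreated. After the correction both GFP libraries lay above the other 4 in 8 of 9 genes, SRCAP being the exception, beside 9.44% of all genes with an annotation. The BCORL1 estimate for CRNN over untreated was 1.03 ± 0.33. The trend was fitted over all genes with GC content and length as separate terms, so a pattern particular to long transcripts of high GC was not modelled. What remains therefore cannot be set apart from such a pattern. The part of GC content and length in the levels of single members was not tested.

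The order with both GFP libraries on top had different shares by GC content and length. It held for 4.96% of genes in the bin of lowest GC, 12.2% in GC bin 7 and 11.7% in the bin of highest GC. By length it held for 11.8% in the bin of shortest transcripts and 6.59% in length bin 4. It held for 16.2% in the bin of longest transcripts, those of 7057 bases or more. Within that longest bin it held for 140 of 456 genes with GC above the median (30.7%) and for 118 of 1138 genes with GC at or below it (10.4%). The members EP400, CREBBP, BCORL1, SRCAP, KMT2D and EP300, belong to the long class of higher GC, and KMT2A and KMT2C to the long class of lower GC. BCOR, at 6910 bases, falls just short of the longest bin.

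Genes most like the members over the 6 libraries were also named. Likeness was the root mean square difference, in log2 units, from the mean centred profile of the 9 genes, among 8822 candidates. HSPG2, which encodes the basement membrane proteoglycan perlecan, was nearest at 0.075, followed by SETD1B at 0.11, ITGB4 and MBD6 at 0.12, and PTPN23 and SETD1A at 0.13. Of the members, only CREBBP came nearer than SETD1B to their own mean, at 0.10, and BCOR was farthest at 0.41. HSPG2 had 49.5 and 33.4 CPM in CRNN cells, 79.6 and 63.6 CPM in GFP cells and 27.9 and 29.1 CPM in untreated cells. ITGB4, an integrin subunit of hemidesmosomes, had 348 and 298 CPM in CRNN cells, 550 and 517 CPM in GFP cells and 232 and 255 CPM in untreated cells. The 6 transcripts were 4202 to 14341 bases long with 61.4% to 64.5% GC, above the GC of every tested member, and MBD6, PTPN23, ITGB4 and SETD1A were shorter than every member.

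The partners of these proteins were examined as 6 lists, with other very large proteins as a seventh, 104 different genes tested in all. None of the 104 passed an adjusted p of 0.05 in any comparison (edgeR), which does not show that they were unchanged. The background was 0.0183% of tested genes for CRNN over GFP, where 3 genes passed, 0% for GFP over untreated and the 1 gene for CRNN over untreated. At an unadjusted p under 0.05 (edgeR) there were 13 of the 104 for CRNN over GFP (4.39% of all tested genes). There were 14 for GFP over untreated (6.93% of all tested genes) and 2 for CRNN over untreated (4.48% of all tested genes). The count for CRNN over GFP and that for GFP over untreated share the GFP libraries. Limma-voom called none. DESeq2 called 1 of the 104 for CRNN over GFP, where it called 22 of all 16396 tested genes. For GFP over untreated it called 4 of the 104, SETD1B, HSPG2 and TRRAP among them, and 29 of all tested genes.

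The subunits that join EP400 in the TIP60 complex come next. Their median log2 fold change was 0.025 for CRNN over GFP and -0.10 for GFP over untreated over 16 genes. Both GFP libraries were on top in 2 (12.5%), beside 9.63% of all tested genes. TRRAP, the giant scaffold of the complex (12675 bases), had 54.0 and 41.5 CPM in CRNN cells, 97.1 and 103 CPM in GFP cells and 46.8 and 44.5 CPM in untreated cells. Its GFP libraries stood far above the rest and close to each other, with 1.13 ± 0.26 for GFP over untreated (edgeR, adjusted p = 0.711). ING3, a reader of methylated H3 lysine 4, was lowest of the list at -0.59 ± 0.38 for GFP over untreated. For CRNN over untreated, EPC1 had -0.68 ± 0.33 and BRD8 0.94 ± 0.58, and the BRD8 value followed untreated replicate 1, at 15.2 CPM beside 71.5 CPM in untreated replicate 2.

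The 11 SRCAP complex partners (median length 1737 bases, median GC 44.7%) had a median of 0.24 for CRNN over GFP, -0.12 for GFP over untreated and 0.12 for CRNN over untreated, and none had both GFP libraries on top. The extremes for GFP over untreated were DMAP1, at 0.27 ± 0.27, and the helicase RUVBL1, at -0.32 ± 0.27. YEATS4, a reader of acetylated histones, had 0.39 ± 0.31 and ACTR6, an actin-related subunit, 0.26 ± 0.32 for CRNN over untreated.

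Of 14 p300/CBP partners tested, 2 (14.3%) had both GFP libraries on top, beside 9.63% of all tested genes. The median was -0.12 for CRNN over GFP and 0.16 for GFP over untreated. CRTC1, a CREB coactivator of 61.9% GC, was highest at 0.81 ± 0.34 for GFP over untreated, with 3.76 and 3.92 CPM in CRNN cells, 6.80 and 5.19 CPM in GFP cells and 2.90 and 3.96 CPM in untreated cells. CREB1 had -0.38 ± 0.35 and CITED2 -0.31 ± 0.27 for CRNN over untreated. CITED1 had too few counts to be tested.

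The 10 partners of BCOR in its Polycomb complex had medians of -0.0088 for CRNN over GFP, -0.13 for GFP over untreated and -0.14 for CRNN over untreated, with no gene at which both GFP libraries were on top. BCL6, the repressor that recruits BCOR, had 21.0 and 21.2 CPM in CRNN cells, 13.2 and 27.5 CPM in GFP cells and 3.63 and 17.0 CPM in untreated cells. Like BCOR it was lowest in untreated replicate 1. USP7, a deubiquitinase, had -0.47 ± 0.30 for CRNN over untreated and KDM2B, which binds CpG islands, -0.50 ± 0.29 for GFP over untreated.

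Of 16 KMT2 partners tested, 4 (25%) had both GFP libraries on top, beside 9.63% of all tested genes. These were HCFC1, NCOA6, SETD1A and SETD1B (named after their values were seen), with transcripts of 5991 to 8876 bases and 50.6% to 62.6% GC. The list median for GFP over untreated was 0.037. SETD1B, a related methyltransferase, had 19.1 and 13.1 CPM in CRNN cells, 37.1 and 32.1 CPM in GFP cells and 13.4 and 12.9 CPM in untreated cells. That is 1.39 ± 0.29 for GFP over untreated (edgeR, adjusted p = 0.711). KDM6A, the H3 lysine 27 demethylase that acts with KMT2C and KMT2D, had 35.0 and 33.3 CPM in CRNN cells, 34.3 and 38.2 CPM in GFP cells and 278 and 37.4 CPM in untreated cells. Untreated replicate 1 alone set its log2 fold changes of -2.21 ± 0.72 for CRNN over untreated and -2.12 ± 0.72 for GFP over untreated. MEN1, the subunit that joins KMT2A, had 0.47 ± 0.31 for CRNN over untreated.

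Among 17 opposing enzymes and corepressors, both GFP libraries were on top in 3 (17.6%), beside 9.63% of all tested genes. The list medians were -0.090 for CRNN over GFP and 0.042 for GFP over untreated. RCOR1, the CoREST scaffold, had -0.55 ± 0.35 for CRNN over untreated, with 82.5 CPM in untreated replicate 1 and 42.3 CPM in untreated replicate 2.

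The 26 other very large proteins, which share length with the coregulators but not their role, had a median of -0.57 for CRNN over GFP and 0.29 for GFP over untreated. Of these, 22 were positive for GFP over untreated, beside 48.9% of all tested genes. Both GFP libraries were on top in 8 (30.8%), beside 9.63% of all tested genes. After correction for GC content and length the medians were -0.30 for CRNN over GFP and 0.039 for GFP over untreated. LRP1, an endocytic receptor, was highest at 1.65 ± 0.50 for GFP over untreated. It had 19.3 and 14.0 CPM in CRNN cells, 18.1 and 36.3 CPM in GFP cells and 4.70 and 12.6 CPM in untreated cells. GFP replicate 1 thus lay below CRNN replicate 1 in LRP1. For CRNN over untreated, FLNA had -0.99 ± 0.42 and UTRN, which links actin to the membrane, -0.65 ± 0.30. FLNA rested on untreated replicate 1, at 2023 CPM beside 846 CPM in untreated replicate 2. The difference between this list and the coregulators was not tested, since the coregulators were chosen on the GFP values.

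**Figure D5:**
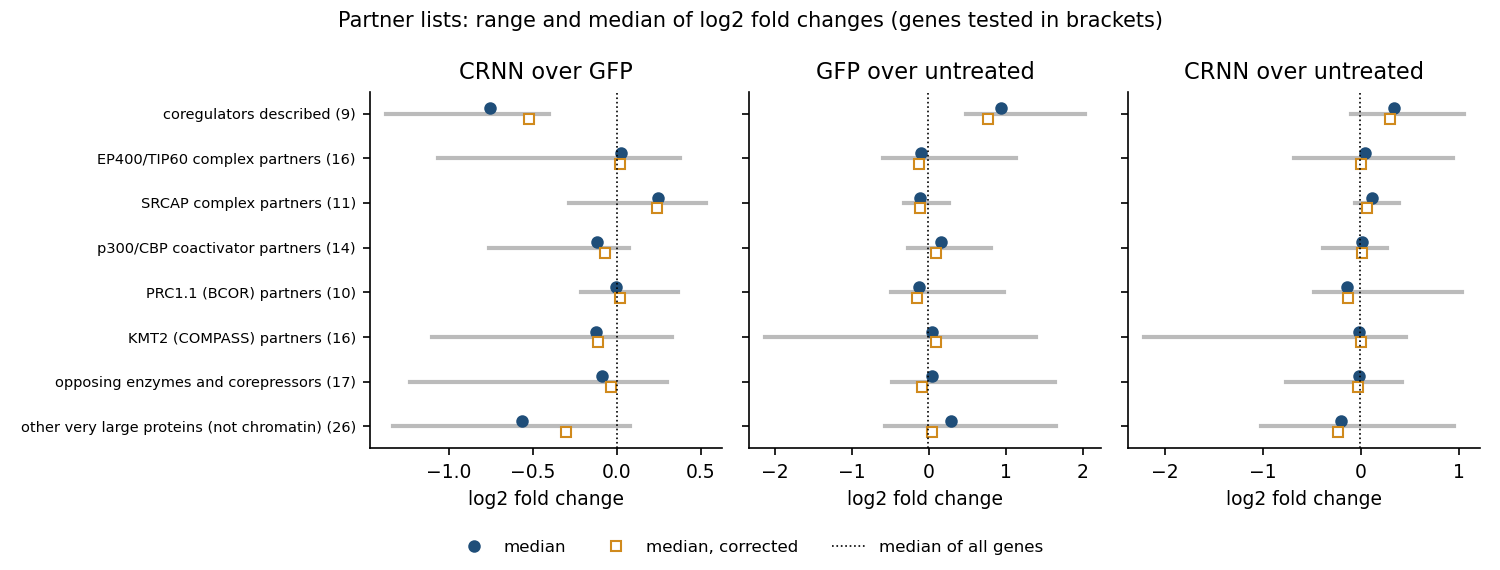
Range (grey bar) and median of log2 fold changes (x axis) of each list (rows, genes tested in brackets) for CRNN over GFP, GFP over untreated and CRNN over untreated; circles are medians as counted, open squares medians after correction for GC content and length, and the dotted line the median of all tested genes. The coregulators and the other very large proteins lie left of the line for CRNN over GFP, at -0.76 and -0.57.

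Reads of several members could be shared with near copies. EP400P1 matched the EP400 transcript at 96.2% identity over 1144 bases and held 262 counts over all libraries, against 4005 for EP400. Copies of KMT2C exons elsewhere in the genome, at 95.7% to 97.8% identity over 282 to 2148 bases, had 2 counts in BAGE2 and none in KMT2CP5, and the others had no row here. Antisense transcripts overlap EP300, KMT2A and KMT2D among others, and whether counting used the strand is not given in the sources used here, so that reads of such pairs cannot be told apart.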

How the data were processed

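Counts were deposited by the authors as a table of raw reads per Ensembl gene for all 6 libraries, with no normalization; STAR 2.6 and HTSeq 0.6.1 are among the tools named per the submitters' processing notes, and the annotation and strand setting are not given in the sources used here. Gene names, lengths and GC content came from the Ensembl canonical transcripts of GENCODE 44 (GRCh38), which matched 51996 identifiers. Genes were kept by filterByExpr (minimum count 10, minimum total 15), which kept 99.9% of the counts.

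All 6 libraries were fitted together in edgeR 4.0.16 (R 4.3.3; TMM, quasi-likelihood F test, two-sided, Benjamini-Hochberg over all 16396 tested genes, call at adjusted p under 0.05), and the SE was taken as |log2 fold change|/√F. The common biological coefficient of variation was 0.289. The correction removed from each library a natural spline (4 degrees of freedom) of GC content and of log2 length, with no joint term. Alternatives were other scaling factors, other filters, DESeq2 1.42.0, limma-voom 3.58.1, a fit of 2 groups, a replicate block, the correction, and each library left out.

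The members, lists and naming rule were chosen with earlier results of these data known. Partner genes named are those called, the 2 with the smallest p for CRNN over untreated and the highest and lowest for GFP over untreated (average log2 CPM of at least 1); the genes most alike were the 6 nearest whose average log2 CPM was 3 or more. PAGR1 and PECAM1 had no row, and some genes that the rule names are not reported here. Near copies were alignments of at least 200 bases at 95% identity.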

Additional observations from a re-analysis of the deposited data

How the results depend on the processing

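No setting called any of the 9 genes for CRNN over untreated. The number of all genes called there was 1, against 152 with no filter and 7 with DESeq2, and with libraries left out it ran from 1 to 957, the last without untreated replicate 2. Leaving out 1 library gave medians over the 9 genes of 0.021 (without CRNN replicate 1) to 0.52 for CRNN over untreated and of 0.89 to 1.35 (without untreated replicate 1) for GFP over untreated, and of -0.94 to -0.57 for CRNN over GFP. Estimates for CRNN over untreated that changed sign were SRCAP at 0.053 with upper-quartile factors and, with libraries left out, SRCAP from -0.45 to 0.52, KMT2C from -0.35 to 0.11, EP300 from -0.048 to 0.42 and KMT2A from -0.074 to 0.40. The cause was not tested. A lone library left in a group was taken to vary like the other groups. Both GFP libraries lay above the rest in 8 genes with RLE factors (not SRCAP) and in 9 with library totals or without mitochondrial genes; upper-quartile factors were not run for this count.

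Same-numbered libraries did not deviate together in every pair of groups (r over 11729 genes 0.26 for CRNN with GFP, -0.071 for CRNN with untreated and 0.19 for GFP with untreated), so the numbers were not taken as pairs. With the replicate block the median was 0.32 for CRNN over untreated, -0.76 for CRNN over GFP and 1.00 for GFP over untreated, and none of the 9 genes was called for CRNN over untreated. The depth limits BCORL1 most, with 32 counts in untreated replicate 1.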

Other observations

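Untreated replicate 1 differed from untreated replicate 2 in genes outside the coregulators as well. KRT17, a keratin of activated squamous cells, had 176 and 182 CPM in CRNN cells, 173 and 67.6 CPM in GFP cells, and 1771 and 113 CPM in untreated cells. CDH5, an endothelial cadherin, had 7.21 and 8.74 CPM in CRNN cells, 7.27 and 12.6 CPM in GFP cells, and 49.9 and 12.1 CPM in untreated cells. In both genes untreated replicate 1 was the highest library and untreated replicate 2 lay near the transduced cells.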
